A study of Mus musculus with 18 samples.

Results

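The messenger RNA of atrial tissue was compared with that of non-infarcted left ventricle (LV) in mice that had received phosphate-buffered saline (PBS) as the control treatment. The comparison used 6 of the 18 libraries of the series, 3 from atria and 3 from non-infarcted LV, taken by the tissue and treatment that their labels give, and 13250 of the 25230 gene symbols in the table had enough counts to be tested. Both groups came from male C57BL/6J mice, an inbred laboratory strain, in which the left anterior descending coronary artery had been tied to cause a myocardial infarction, and both tissues were taken 3 days afterwards. No allele, transgene or active drug separates the groups, and each library is labelled a biological replicate. Age, the number of animals behind a library, pooling, and whether left or right atrium was taken are not given in the labels, and sham-operated hearts were not analysed here. A lasting difference between chambers and a different response of the chambers to the infarct therefore cannot be told apart.

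The atria are thin-walled chambers that receive blood, carry the pacemaker and part of the conduction system, and secrete natriuretic peptides from granules in their muscle cells. The ventricle is a thick, densely vascularised pump that depends on mitochondrial oxidation of fatty acids. Their muscle cells share the main myosin motor and calcium pump of the heart but use different myosin light chains, ion channels and transcription factors, among them T-box, GATA, Iroquois and nuclear receptor families that set chamber identity during development.

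Levels are normalised CPM, that is, counts per 1000000 counts of a library after the 6 libraries were scaled to each other, so they compare libraries for 1 gene and not genes of different length. Totals were 6262832 to 18839472 counts in the atria and 8341694 to 17016262 in the LV. The first principal component of the 6 libraries held 90.2% of the variance and separated the chambers. Some libraries stood apart within their group. LV replicates 1 and 2 held Myl7, Myl4, Sln, Mybphl and Dkk3 at a low level, and LV replicate 3 held them at 0 or nearer to 0. Atria replicate 2 held fat tissue genes: the brown fat gene Ucp1 had 1673 counts there and 0 in the other 2 atrial libraries, and the summed level of 16 adipocyte genes was 5750 CPM against 1330 to 1360 in the other atria and 976 to 1040 in the LV. LV replicate 3 had a summed level of 3050 CPM for 23 immediate early genes, which respond to stress and handling within minutes, against 1270 to 1570 in the other 2 LV libraries and 2470 to 2900 in the atria. A count of 0 in this table does not show that a transcript is absent, since the globin genes Hba-a1 and Hbb-bs and the housekeeping genes Rpl26 and Ndufs5 were listed at 0 in all 6 libraries. In bulk tissue, fewer cells of a type and less RNA per cell cannot be told apart.

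The tissue labels were checked against defining muscle genes. Myl7, Sln and Mybphl, defining genes of atrial muscle, stood at 693 to 5771 CPM in every atrial library, and Myl2 and Irx4, defining genes of ventricular muscle, stood at 20.8 CPM or more in every LV library. Each library was thus high for the markers of its own label.

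A gene is called here when its p-value from edgeR's quasi-likelihood test, adjusted over all genes tested by the Benjamini-Hochberg method, was below 0.05. On that rule 3457 genes (26.1% of those tested) were higher in atria and 3409 (25.7%) were lower, 51.8% in all. The median log2 fold change of all genes was 0.00278 and the median size of the change, whatever its sign, was 0.423. Of the called genes, 60.5% differed by less than 2-fold. Past a log2 fold change of 1, tested as such, 988 genes (7.46%) were higher and 515 (3.89%) lower. The far end was uneven, with 177 genes at least 16-fold higher in atria and 46 at least 16-fold lower. Scaling by library totals alone shifted the median of all genes to 0.134 and gave 4256 higher and 2578 lower genes, so that 62.3% of called genes were higher in place of 50.3%. The groups did not overlap for 8054 genes, 60.8% of those tested. Counts of list members stand against these shares over all genes.

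**Figure D1:**
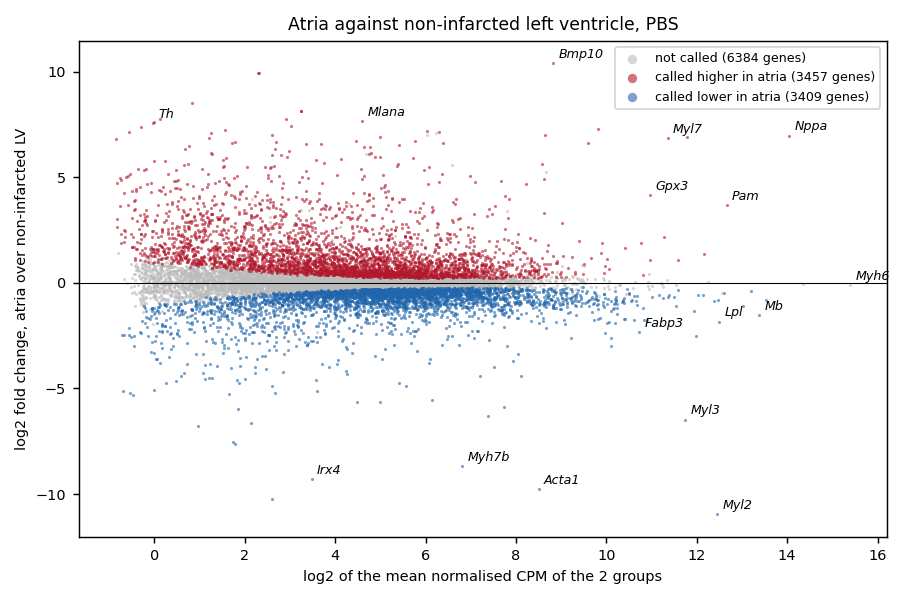
Each point is 1 of 13250 genes, with the log2 of its mean normalised CPM on the x axis and the log2 fold change of atria over non-infarcted LV, PBS, on the y axis. Red marks genes called higher in atria and blue genes called lower. Points for genes at or near 0 in one chamber, such as Irx4 and Th, depend on the fit's prior count. Myh6, the gene with the highest level, lies near 0, while Nppa and Myl2 lie far from it on opposite sides.

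The atrial side was led by genes of the atrial muscle cell. Nppa encodes atrial natriuretic peptide, the hormone of the atrial granules (chromosome 4, 148000722 to 148002079, plus strand, GRCm38). It stood at 33860.5, 29613 and 37193 CPM in the 3 atrial libraries and at 262, 394 and 148 in the 3 LV libraries. Every atrial library was far above every LV library, and the log2 fold change was 6.97 (SE 0.45, adjusted p = 4.67e-05), a 125-fold difference. Nppa alone took 3.21 to 3.77% of all atrial counts against 0.0135 to 0.0391% of LV counts. Bmp10, a signalling protein of the bone morphogenetic protein family made by atrial muscle, had the largest fitted difference of the genes named here on the atrial side. Its level was 935, 719 and 1048 CPM in atria and 0.728, 1.04 and 0 in LV, a log2 fold change of 10.40 (SE 0.42, adjusted p = 2.56e-06). The groups were far apart, and LV replicate 3 held no count.

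The 250 bases before the RefSeq start of 4 chamber genes are shown because these genes lie at the ends of the comparison, in both directions. Capitals mark matches on either strand to 3 strings. TATAAA is the string of the TATA box, where transcription complexes assemble. AGATAA is a form of the site of GATA factors. AGGTGT is the core of the site of T-box factors. The sequences come from RefSeq, build GRCm38.p6. Positions count back from -1, the last base before the start.
Nppa (chr4:148000472-148000721, plus strand): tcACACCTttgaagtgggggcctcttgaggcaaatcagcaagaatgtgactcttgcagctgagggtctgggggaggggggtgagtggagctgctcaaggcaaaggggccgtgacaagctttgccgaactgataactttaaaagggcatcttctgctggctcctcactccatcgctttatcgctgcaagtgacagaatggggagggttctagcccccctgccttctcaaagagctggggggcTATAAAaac
Bmp10 (chr6:87428744-87428993, plus strand): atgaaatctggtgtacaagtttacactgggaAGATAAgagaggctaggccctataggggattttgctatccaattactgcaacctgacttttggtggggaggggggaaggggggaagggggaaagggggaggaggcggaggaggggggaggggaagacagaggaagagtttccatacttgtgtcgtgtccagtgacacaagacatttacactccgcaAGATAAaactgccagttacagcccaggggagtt
Myl7 (chr11:5898783-5899032, minus strand): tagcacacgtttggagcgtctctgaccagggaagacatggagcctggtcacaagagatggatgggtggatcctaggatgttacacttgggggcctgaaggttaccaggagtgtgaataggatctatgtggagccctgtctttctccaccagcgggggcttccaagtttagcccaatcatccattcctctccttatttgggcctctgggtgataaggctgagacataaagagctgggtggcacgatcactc
Myl3 (chr9:110763428-110763677, plus strand): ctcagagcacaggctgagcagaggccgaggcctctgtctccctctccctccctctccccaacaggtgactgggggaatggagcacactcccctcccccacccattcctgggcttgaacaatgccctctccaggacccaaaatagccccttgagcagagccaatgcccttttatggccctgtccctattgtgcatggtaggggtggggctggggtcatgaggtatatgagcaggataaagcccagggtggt
The Nppa window held TATAAA at -9 to -4 and a T-box core, on the other strand, at -248 to -243. Whether TATAAA at that place acts as the TATA box of this start was not tested. The Bmp10 window held AGATAA at -219 to -214 and again at -33 to -28. The windows of Myl7 and Myl3 held none of the 3 strings, which says only that these letters are not in these windows. Among 32851 windows of 250 bases in the table, 12.4% held TATAAA, 9.99% AGATAA and 11.8% AGGTGT, so that a match is common. A window was in the table for 10509 of the 13250 tested symbols. The table's windows for Myl2 lie upstream of the GENCODE start of that gene and are not shown.

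The atrial myosin light chains followed. Myl7, the regulatory light chain of atrial myosin, stood at 5771, 4509 and 5292 CPM in atria and 84.6, 47.4 and 0 in LV, and Myl4, the essential light chain, at 7715, 6144 and 7269 and 104, 66.0 and 2.50. For both genes the LV libraries differed among themselves more than the atrial ones did, with LV replicate 3 lowest. The log2 fold change of Myl7 was 6.85 (SE 1.6, adjusted p = 0.0253) and that of Myl4 6.91 (SE 1.39, adjusted p = 0.016). With the replicate number as a block the adjusted p was 0.0883 for Myl7 and 0.0698 for Myl4, so neither was called, although the fitted differences were 7.38 and 7.40. The call of Myl7 was also lost when any atrial library or LV replicate 1 or 2 was left out (adjusted p 0.0569 to 0.101), and that of Myl4 without LV replicate 2 (0.0708). Without LV replicate 3 the adjusted p was 3.69e-06 for Myl7, at a log2 fold change of 6.29.

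The traces of atrial genes in LV ran together. As a share of the atrial mean, Myl7, Myl4, Sln, Mybphl and the secreted glycoprotein gene Dkk3 stood at 1.02 to 1.77% in LV replicate 1, at 0.737 to 0.956% in LV replicate 2 and at 0 to 0.13% in LV replicate 3. Nppa did not follow that order, at 0.781, 1.18 and 0.442%, and Bmp10 was near absent from all, at 0.0809, 0.116 and 0%. In the other direction, Myl2 stood in the atria at 0.0183 to 0.0755% of its LV mean and Myl3 at 0.736 to 1.62%. Whether atrial tissue in the LV samples accounts for these traces was not tested.

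Of the 16 atrial muscle markers, all tested, 15 were called higher and 1 lower, with a median log2 fold change of 4.37. Sln encodes sarcolipin, an inhibitor of the calcium pump, and stood at 1834, 1605 and 1898 CPM in atria and 18.2, 14.3 and 0 in LV. Stard10, a lipid transfer protein gene, was 30.2-fold higher (log2 fold change 4.92, SE 0.14), with LV libraries at a like level, 27.3, 23.7 and 24.0 CPM. Pam, the enzyme that amidates peptide hormones and is the chief membrane protein of atrial granules, stood at 11513, 11311 and 13214 CPM in atria and 996, 1012 and 829 in LV, the second largest difference in CPM, after Nppa, among genes named as higher in atria. Clu, the secreted chaperone clusterin, was 4.46-fold higher and Gpx3, a secreted glutathione peroxidase, 17.8-fold. The exception was Kcna5, a potassium channel gene known for its atrial current in human hearts: it stood at 22.1, 20.1 and 24.3 CPM in atria and 58.8, 56.8 and 64.6 in LV, and was lower in atria (log2 fold change -1.45, adjusted p = 1.18e-06) with no overlap between the groups.

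**Figure D2:**
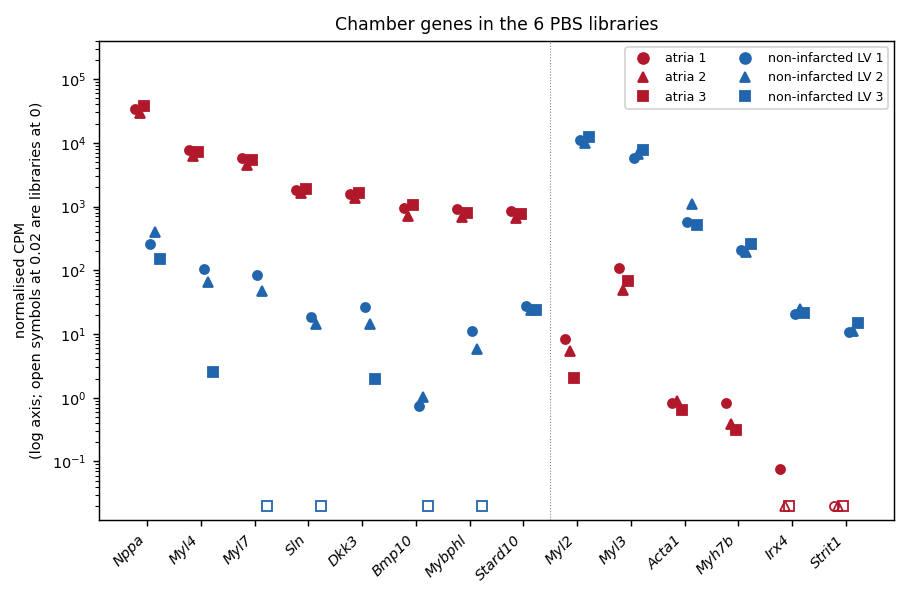
Normalised CPM (log axis) of 14 chamber genes in the 6 PBS libraries, with atria in red and non-infarcted LV in blue and 1 symbol shape for each replicate number. Open symbols mark libraries at 0. The groups do not overlap for any of the 14 genes, and LV replicate 3 is the lowest LV library for Nppa, Myl4, Myl7, Sln, Dkk3, Bmp10 and Mybphl.

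Other genes with very large differences are less often listed as chamber markers. Cd207, the langerin gene of antigen-presenting cells, and Uts2b, which encodes a urotensin-related peptide, had no count in LV. Against a floor of 3 counts over the LV group, Cd207 was at least 113-fold higher and Uts2b at least 112-fold higher in atria. Cxcl13, a chemokine that attracts B cells, had 757 counts in the atria and 2 in LV, a ratio of 327 (95% interval of the counts 90.6 to 2700). The alcohol dehydrogenase gene Adh6b had a ratio of 315 and the amino acid transporter gene Slc6a14 one of 260, also from 2 LV counts each. Mlana, known from pigment cells, stood at 48.6, 42.7 and 53.7 CPM in atria and 0.243, 0.380 and 0 in LV, with little spread among atrial libraries. The matrix protein gene Cilp2 and the membrane protein gene Tmem163 were 145-fold and 143-fold higher.

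The ventricular side was led by Myl2, the regulatory light chain of ventricular myosin. It stood at 8.47, 5.48 and 2.05 CPM in atria and at 11230.1, 10117 and 12284 in LV, the largest difference of all genes named here (log2 fold change -10.94, SE 0.48, adjusted p = 6.32e-06). The LV replicates lay close to each other, and all atrial libraries were far below them. Myl3 encodes the other light chain of ventricular myosin, the essential one, and its level was 109.6, 49.7 and 67.9 CPM in atria and 5843, 6772 and 7634 in LV, 89.1-fold lower in atria. Per kilobase of exon, Myl7 stood at 8800 CPM per kb in atria and Myl2 at 5750 in LV, so each chamber's regulatory light chain had a like order of level. Acta1, skeletal alpha actin, stood at 0.832, 0.881 and 0.630 CPM in atria and 564, 1096 and 506 in LV, and Myh7b, a slow-type myosin heavy chain, at 0.832, 0.391 and 0.315 and 209.5, 196 and 261. Both were lower in atria, at -9.77 and -8.69 on the log2 scale. The LV spread of Acta1 was wide, with LV replicate 2 about as high as the other 2 LV libraries together, yet every atrial library was far below all of them.

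Strit1, which encodes a small activator of the calcium pump, had 407 counts in LV and none in the atria, at least 157-fold lower in atria against a floor of 3 counts over the group. Irx4, the Iroquois factor of the ventricle, had 764 LV counts and 1 atrial count, a ratio of 883 (95% interval of the counts 159 to 34900). Ogdhl, a relative of the oxoglutarate dehydrogenase enzyme, stood at 4.69, 4.40 and 2.99 CPM in atria and 338, 328 and 322 in LV, and the membrane protein gene Lrtm1 at 11.6, 4.31 and 5.83 and 446, 429.9 and 384. Myot, the Z-disc protein myotilin, was 46.3-fold lower, the carboxypeptidase-like gene Cpxm2 49.8-fold, the endocytic adaptor Epn3 49.5-fold and the DNA polymerase gene Polq 37.1-fold. By difference in CPM the LV led in Myl2, then in Mb (myoglobin, 5573, 4831 and 6071 CPM in atria against 14901, 16128 and 16755), Myl3, Lpl, Actc1, Tpm1, Pln and Mybpc3. Of 14 ventricular muscle markers, 13 were called lower in atria and none higher, with a median log2 fold change of -3.37, and only Myh7, the beta myosin heavy chain, was not called.

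Among 34 tested cardiac transcription factors, 10 were called higher and 15 lower, with a median of -0.24. Tbx5, a T-box factor of the atria and conduction system, stood at 375, 280.3 and 307 CPM in atria and 36.8, 34.9 and 28.9 in LV (9.52-fold higher). Gata5, known from endocardium and epicardium, was 95.4-fold higher at a low level, and its locus overlaps an antisense transcript. The orphan nuclear receptor genes Nr2f1 and Nr2f2, which set atrial identity, had log2 fold changes of 2.29 and 1.24. Shox2, a factor of the sinus node, stood at 4.16, 7.88 and 4.88 and 1.46, 0.285 and 0.659 CPM. Of the T-box factors besides Tbx5, Tbx3 was called lower in atria, and Tbx2, Tbx18 and Tbx20 were not called. On the LV side, Irx3 and Irx5 were 11.1-fold and 10.4-fold lower in atria, Hey2, a Notch target that represses atrial genes, 4.21-fold, and Hand2 stood at 33.7, 31.2 and 32.5 against 50.6, 64.7 and 59.5 CPM. Gata4 and Nkx2-5, core factors of heart muscle, were not called: Gata4 had a log2 fold change of -0.24 (SE 0.13) and Nkx2-5 of -0.03 (SE 0.13). With the replicate block Gata4 was called lower (adjusted p = 0.0413).

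In the natriuretic peptide and granule list, 8 of 12 tested genes were called higher and 1 lower (2 without atria replicate 2), with a median of 0.64. Corin, the protease that activates the Nppa precursor, stood at 628, 600.4 and 699 CPM in atria and 339, 279 and 327 in LV, a 2.04-fold difference. The receptor genes Npr3, which clears the peptides, and Npr1, which signals through cyclic GMP, were 6.80-fold and 1.48-fold higher. Cpe, a prohormone-processing carboxypeptidase, and Furin had log2 fold changes of 0.73 and 0.41. The protease gene Pcsk6 stood at 38.3, 32.7 and 17.6 CPM in atria and 67.7, 66.5 and 73.6 in LV and was lower. Nppb, brain natriuretic peptide, stood at 884, 694 and 1177 CPM in atria and 413, 367 and 828 in LV, with LV replicate 3 inside the atrial range. Its log2 fold change of 0.78 (SE 0.39) was not called (adjusted p = 0.159). With the replicate block it was (0.84, adjusted p = 8.97e-05), and so it was without LV replicate 3 (1.23, adjusted p = 0.00219).

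Within the sarcomere, the main motor did not separate the chambers. Myh6, the alpha myosin heavy chain, stood at 45535, 36297 and 41641 CPM in atria and 47748, 39530.0 and 47056 in LV, with overlapping groups and a log2 fold change of -0.12 (SE 0.13, adjusted p = 0.445), which was 0.0084 when scaled by library totals only. Myh7 stood at 524, 402 and 436 and 699, 577 and 462 CPM and was not called (log2 fold change -0.35, adjusted p = 0.0819), though it was with the replicate block (-0.34, adjusted p = 0.0122). Both genes have overlapping transcripts on the other strand. Of 19 thick filament and light chain genes, 7 were higher and 8 lower (median -0.12). Besides the chamber light chains, Myl1, a light chain of fast skeletal muscle, was 15.4-fold higher, and Mybphl, a myosin-binding protein of atrial muscle, 127-fold. Mybpc3, the cardiac myosin-binding protein, was 2.49-fold lower.

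Of 33 thin filament and Z-disc genes, 6 were higher and 16 lower (median -0.33). Tropomyosin genes went both ways: Tpm2 was 12.5-fold higher and Tpm3 had a log2 fold change of 0.97, whereas Tpm1 was 2.11-fold lower. Actc1, cardiac alpha actin, stood at 8321, 7957 and 9595 CPM in atria and 13208, 13958 and 18025 in LV. Troponin C (Tnnc1) and troponin I (Tnni3) were 2.26-fold and 1.5-fold lower in atria. Tnni1, the slow skeletal troponin I, was higher (log2 fold change 4.43) from near 0 in LV. Ankrd1, a stretch-responsive protein of the Z-disc, stood at 5587, 5675 and 8426 CPM in atria and 2096, 2228 and 3261 in LV, higher by 1.38 on the log2 scale. Titin, Ttn, was not called.

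Ion channels split along pacemaking, repolarisation and subunit type. Of 18 sodium, calcium and pacemaker channel genes, 8 were higher in atria and 5 lower (median 0.26). The calcium channel subunit Cacna2d2 stood at 186, 129 and 164 CPM in atria and 5.71, 3.32 and 3.69 in LV, whereas its relative Cacna2d1 was 3.15-fold lower in atria. The L-type channel gene Cacna1d was 11.9-fold higher and Cacna1c, the main L-type channel gene of the ventricle, 2.00-fold lower. The T-type channel genes Cacna1h and Cacna1g had log2 fold changes of 4.83 and 0.44, the latter call being lost with all 18 libraries in the fit and without atria replicate 1 or LV replicate 1 or 2. The pacemaker channel gene Hcn4 was 4.03-fold higher, and its relative Hcn2 3.16-fold lower. The sodium channel subunit gene Scn4b was 7.71-fold lower in atria. Scn10a, known from sensory nerve and conduction tissue, was 9.02-fold higher.

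Of 25 potassium channel genes, 7 were higher and 12 lower (median -0.51). The channel opened by acetylcholine is built from Kcnj3 and Kcnj5, and both were higher, by 2.54 and 1.98 on the log2 scale. Kcnj3 stood at 371, 342 and 394 CPM in atria and 79.6, 50.2 and 59.9 in LV. The muscarinic receptor that opens this channel, Chrm2, was 2.52-fold higher (74.9, 49.0 and 56.6 against 22.2, 17.2 and 33.2 CPM). The sulphonylurea receptors of the ATP-sensitive channel were divided: Abcc8 stood at 240.4, 175 and 193 CPM in atria and 52.2, 48.5 and 43.9 in LV, and Abcc9 at 38.6, 33.0 and 34.0 and 471, 375 and 505. Abcc8 was thus 4.20-fold higher and Abcc9 12.8-fold lower in atria, each without overlap. Pore genes of that channel, Kcnj8 and Kcnj11, were lower. Kcnip2, a subunit of the transient outward current, was 5.53-fold lower, and Kcnh2, which carries a delayed rectifier current, 2.74-fold higher.

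**Figure D3:**
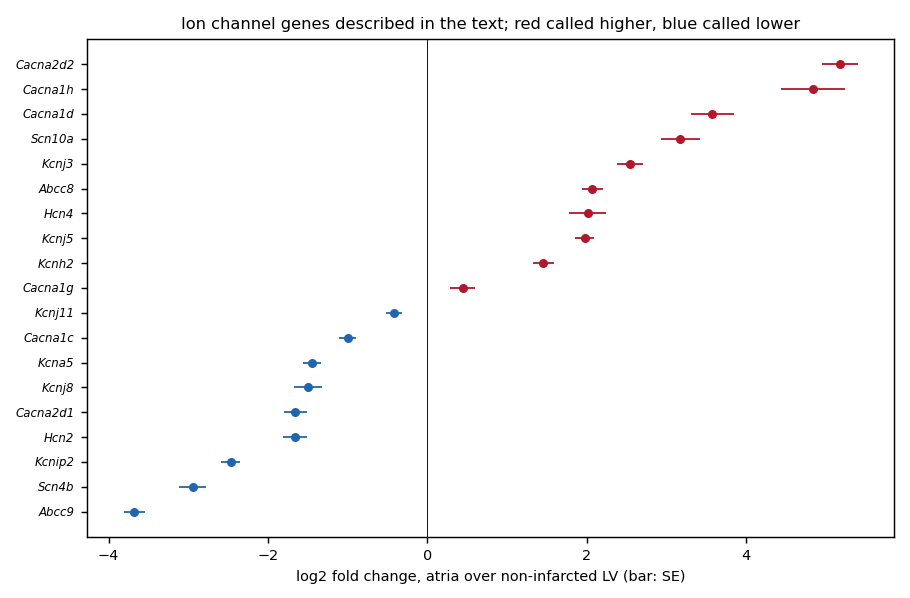
Log2 fold change of atria over non-infarcted LV (points) with its standard error (bars) for the ion channel genes of the sodium, calcium, pacemaker and potassium lists that are described in the text, ordered by size. Red marks genes called higher in atria and blue lower. Cacna2d2 stands at the atrial end and Abcc9 at the ventricular end.

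Of 23 genes for calcium handling in the sarcoplasmic reticulum, 5 were higher and 10 lower (median -0.16). The pump Atp2a2 stood at 20149, 19178 and 21598 CPM in atria and 20933, 18489 and 24565 in LV and the release channel Ryr2 at 2662, 2012 and 2487 and 2269.6, 2122 and 2697. Neither was called, with log2 fold changes of -0.07 (SE 0.12) and 0.01 (SE 0.13). The pump's small inhibitors were opposite. Sln was 154-fold higher, and Pln, phospholamban, stood at 992, 1337 and 1318 CPM in atria and 7262, 6286 and 7072 in LV, 5.65-fold lower in atria. Per kilobase of exon, Pln stood at 441 CPM per kb in atria and 2490 in LV and Sln at 1350 and 8.23. Hrc, S100a1 and Tmem38a, genes for proteins of calcium storage or release, were lower, at -0.99, -1.03 and -0.80 on the log2 scale.

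Connexins and the junctions between muscle cells showed 6 higher and 5 lower genes of 16 (37.5 and 31.2%, against 26.1 and 25.7% of all genes tested), with a median of 0.13. Gja5, the fast-conducting connexin of atria and conduction system, stood at 87.6, 65.4 and 84.1 CPM in atria and 5.64, 6.45 and 4.48 in LV (14.1-fold). Gja1, the main connexin of working muscle, differed by 0.27 on the log2 scale (adjusted p = 0.0319), a call lost with all 18 libraries in the fit and without atria replicate 1 or 3 or LV replicate 1 or 2. Desmosomal genes went both ways, with Dsc2 and Dsg2 higher (1.29 and 0.83) and Dsp lower (-0.97).

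Of 21 tested receptor genes, 9 were higher and 9 lower (median -0.02). Rxfp1, the relaxin receptor, stood at 52.3, 48.9 and 57.4 CPM in atria and 1.34, 0.474 and 0 in LV, and Npy1r, a neuropeptide Y receptor, was 13.2-fold higher. The glucagon receptor Gcgr and the related Gipr were higher at low levels, by 3.02 and 3.23 on the log2 scale. Glp1r, the receptor that the drug arm of the study targets, was below the count filter: it had 19, 11 and 8 counts in the atrial libraries and 0, 0 and 1 in the LV libraries. On the LV side, Agtr1a, an angiotensin receptor, was 5.80-fold and the orphan receptor Gpr22 24.2-fold lower in atria. The beta-adrenergic receptor Adrb1 was not called (log2 fold change -0.16, SE 0.15).

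Genes of energy metabolism were lower in atria across pathways. Of 28 genes for fatty acid uptake and oxidation, 25 were lower and 1 higher (2 higher without atria replicate 2 or with the replicate block), with a median log2 fold change of -1.40. Past a log2 fold change of 1, 17 were lower. Fabp3, the fatty acid carrier of muscle, stood at 560.3, 538 and 581 CPM in atria and 2939, 2669 and 2885 in LV (5.06-fold lower). Lpl, which frees fatty acids from circulating lipid, was 3.59-fold lower, the fatty acid transporter Cd36 3.35-fold, and the beta-oxidation enzyme genes Acadm and Hadh 3.61-fold and 3.37-fold. The exception was Cpt1a, the liver form of the mitochondrial gatekeeper, which was higher by 0.68. All 25 genes of the tricarboxylic acid cycle and ketone use were lower (median -1.0) and no other outcome was seen when any 1 library was left out. Idh2 and the ketone enzyme gene Oxct1 were 3.35-fold and 3.68-fold lower.

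All 36 tested genes of respiratory complex I were lower (median -0.81), with 35 or 36 called when any 1 library was left out. Of 38 genes of complexes III to V, 34 were lower and 1 higher (median -0.78), with 2 higher under the replicate block. Ndufs6 was 3.01-fold and the cytochrome subunit gene Uqcrc1 2.25-fold lower. The higher gene was Cox8a (0.39, adjusted p = 0.0286), whose striated muscle counterpart Cox8b was 2.08-fold lower, and the call of Cox8a was lost without atria replicate 2 or LV replicate 1. Most members of these lists changed by less than 2-fold: past a log2 fold change of 1, 1 gene of complex I and none of complexes III to V were called. In the creatine kinase and phosphate transfer list 10 of 15 were lower and 2 higher (median -0.75). Ckmt2 and Ckm, the mitochondrial and muscle creatine kinases, were 3.44-fold and 3.27-fold lower, while the brain form Ckb was higher by 0.42.

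Of 26 genes for glycolysis and glucose uptake, 17 were lower and 3 higher (median -0.66), with 5 higher when all 18 libraries were in the fit. The insulin-responsive glucose transporter Slc2a4 stood at 296, 249.7 and 258 CPM in atria and 545, 524 and 483 in LV, whereas the basal transporter Slc2a1 stood at 59.0, 78.5 and 76.6 and 32.5, 31.7 and 46.0. Both differences were without overlap, at -0.95 and 0.97. Eno3 and Ldhb, the muscle enolase and the heart lactate dehydrogenase, were 2.39-fold and 2.76-fold lower.

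**Figure D4:**
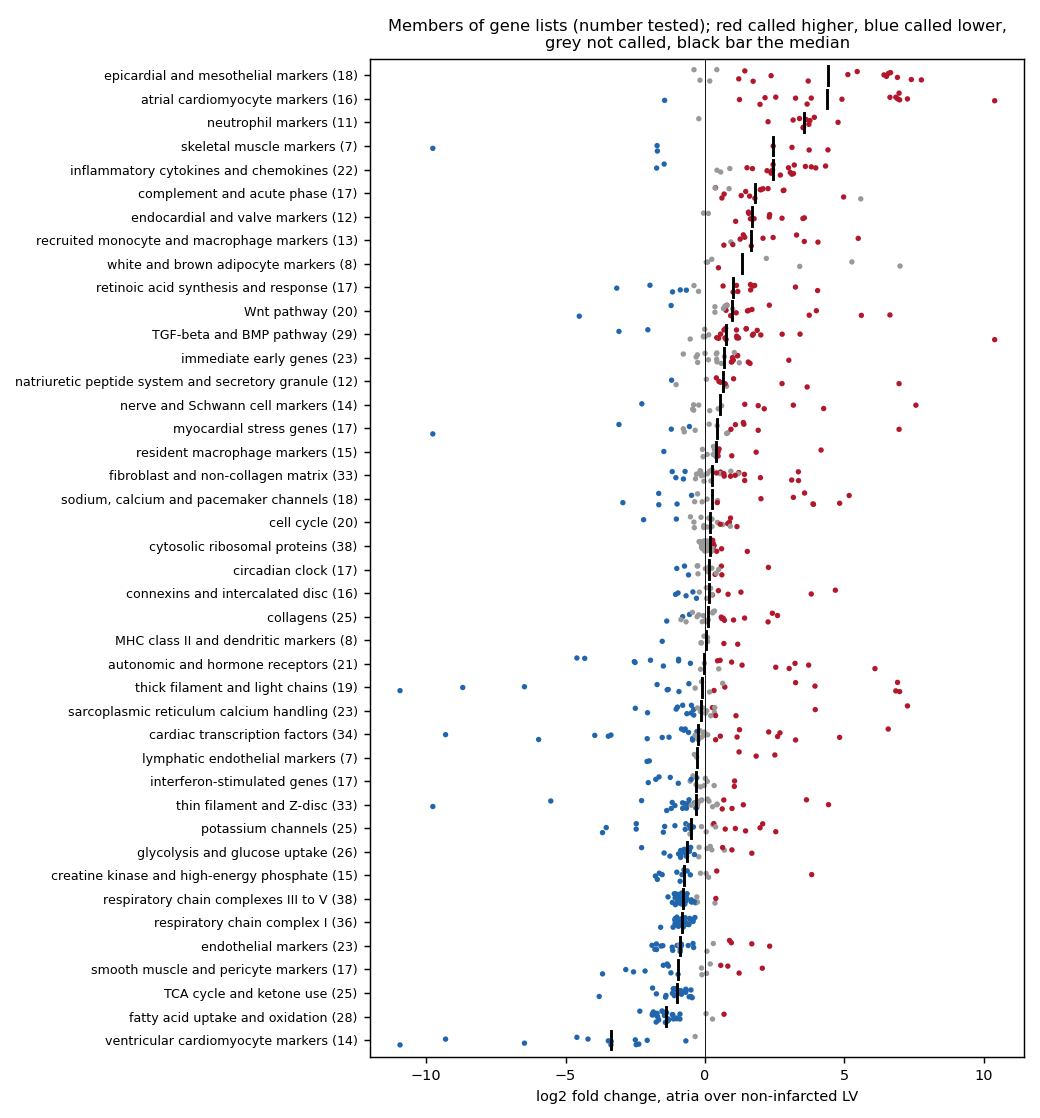
Log2 fold change of atria over non-infarcted LV for the tested members of gene lists with at least 7 of them, ordered by median (black bar). Red marks genes called higher, blue lower and grey not called. Epicardial and atrial muscle lists lie at the top with medians of 4.42 and 4.37, and fatty acid and ventricular muscle lists at the bottom with -1.40 and -3.37. Some symbols are in more than 1 list.

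Genes of the outer and inner linings of the heart were higher in atria. Of 18 tested markers of epicardium and mesothelium, the covering cell layers, 14 were higher and none lower (1 lower with the replicate block), with a median of 4.42 (4.18 with genes at 3 or fewer LV counts set to their counted ratio or bound). Upk3b, a surface protein of mesothelium, stood at 50.6, 76.9 and 61.0 CPM in atria and 0.668, 0.569 and 0.132 in LV, and Msln, mesothelin, at 69.1, 99.9 and 82.1 and 1.21, 1.14 and 0. The epithelial keratins Krt18 and Krt19 were 35-fold and 96.2-fold higher. The epicardial factors Wt1 and Tbx18 were not called, with log2 fold changes of 0.17 (SE 0.18) and -0.18 (SE 0.20). The summed level of the list was 534 to 691 CPM in atria and 118 to 138 in LV. Of 12 endocardial and valve markers, 10 were higher and none lower (median 1.70), and the endocardial factor Nfatc1 and Bmp6 were not called. The higher ones included Plvap, which forms diaphragms of fenestrated endothelium, at 121, 101 and 106 CPM in atria and 9.10, 11.1 and 7.11 in LV. Vwf, the clotting factor of endothelium, was 5.0-fold higher and is also in the list of endothelial markers.

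Other vessel genes were lower. Of 23 endothelial markers, 16 were lower and 4 higher (median -0.89). The lower genes included Kdr, a receptor for vascular endothelial growth factor (3.47-fold), and the capillary genes Gpihbp1, which holds Lpl on the capillary wall (2.85-fold), and Car4 (-1.90 on the log2 scale). The higher ones were Pecam1, Emcn, Eng and Vwf, and Pecam1, a general endothelial gene, stood at 472, 437 and 459 CPM in atria and 247, 248 and 248 in LV. Of 17 markers of smooth muscle and pericytes, the contractile cells of vessel walls, 9 were lower and 4 higher (median -0.97). Pericyte genes went both ways. Cspg4 and Mcam, surface proteins of pericytes and other vessel wall cells, were higher (1.23 and 0.57 on the log2 scale). Rgs5 was lower and stood at 146, 154 and 144 CPM in atria and 716, 617 and 640.1 in LV, and Higd1b and Vtn had log2 fold changes of -2.84 and -2.56.

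Nerve and Schwann cell genes were higher in 6 of 14 tested members and lower in 1 (median 0.54). Th, which makes catecholamines in sympathetic nerves, had 74 counts in the atria and none in LV, at least 21.3-fold higher. Dbh, a later enzyme of noradrenaline synthesis, stood at 16.5, 8.66 and 12.8 and 3.03, 2.18 and 3.43 CPM, and the myelin gene Mbp was 19.1-fold higher. The lower gene was Ddc, whose enzyme acts between Th and Dbh. As CPM of the library total, Ddc stood at 0.551, 1.27 and 0.16 in atria and 2.35, 4.42 and 3.96 in LV.

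Matrix genes differed by member. Of 25 collagens, 9 were higher and 3 lower (median 0.12), with 5 lower without atria replicate 1. Of the main fibrillar collagens, Col1a1 was called higher, and Col1a2 and Col3a1 were not called. With the replicate block Col1a2 and Col3a1 were called higher too (adjusted p = 0.0297 and 0.0268), and 5 collagens were lower. Of 33 fibroblast and matrix genes, 13 were higher and 4 lower (median 0.26). Timp1, an inhibitor of matrix proteases, stood at 106, 117 and 92.0 CPM in atria and 9.47, 12.6 and 8.56 in LV, and the tendon and cartilage proteins Fmod and Comp were 10.2-fold and 8.64-fold higher. Thbs2 and Ogn were lower (-1.18 and -1.05).

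Genes listed as markers of neutrophils and of recruited monocytes and macrophages were higher in atria. Of 11 tested neutrophil markers, 10 were higher and none lower (median 3.54), and 6 were called without LV replicate 3. S100a8 stood at 36.9, 162 and 145 CPM in atria and 5.16, 9.39 and 11.7 in LV and S100a9, its partner in neutrophil granules, at 84.0, 261 and 216 and 8.01, 17.0 and 18.4. Atria replicate 1 was the lowest atrial library for both, still above every LV library. The call of S100a8 was lost when any 1 LV library was left out. Csf3r, the receptor for granulocyte growth factor, and the chemokine receptor Cxcr2 were 10.5-fold and 11.6-fold higher. The summed level of the list was 390, 1080 and 887 CPM in the atrial libraries and 90.3 to 129 in LV. Of 13 markers of recruited monocytes and macrophages, 12 were higher and none lower (median 1.66). Lgals3, galectin-3, stood at 118, 131 and 148 CPM in atria and 2.43, 3.04 and 3.56 in LV (45.3-fold). In infarcted LV of the same treatment it stood at 6.28, 7.89 and 5.84 CPM of the library total. Which cells account for its atrial level was not tested.

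Resident macrophage genes differed less. Of 15 tested, 7 were higher and 1 lower (median 0.38), and 3 were higher without atria replicate 2, without LV replicate 1, or with all 18 libraries in the fit. Vsig4 and Lyve1 were 18-fold and 3.57-fold higher, Lyve1 being shared with lymphatic vessels, and Mgl2 was lower (-1.48). Markers of B cells and of T and NK cells had 1 tested gene each.

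Of 22 inflammatory cytokine and chemokine genes, 17 were higher and 2 lower (median 2.44), and the number higher was 12 without LV replicate 3 and 13 without LV replicate 1. Il33, an alarm cytokine of stromal cells, stood at 151, 220.4 and 171 CPM in atria and 14.1, 15 and 8.83 in LV, and Ccl2, which recruits monocytes, at 67.9, 103 and 60.0 and 18.1, 20 and 10.7. Cxcl12, a chemokine of vessel and stromal cells, was 2.76-fold lower in atria, and Cxcl9 was lower too. Of 17 complement and acute phase genes, 14 were higher and none lower (median 1.79). C3 stood at 458, 732 and 449 CPM in atria and 139, 132 and 133 in LV and the neutrophil and epithelial protein Lcn2 at 144, 267 and 202 and 40.2, 56.5 and 30.6. Interferon-stimulated genes went the other way, with 2 of 17 higher (1 without atria replicate 2 or LV replicate 2) and 7 lower (median -0.32), led by Rsad2 and Ifit2 (-2.03 and -1.76). The shares of these white cells in each tissue were not measured.

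**Figure D5:**
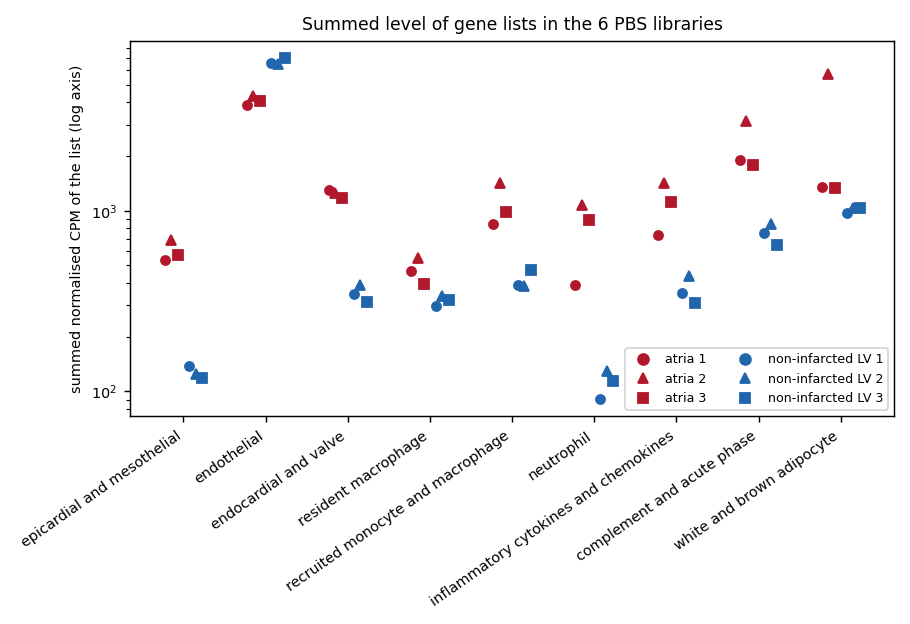
Summed normalised CPM (log axis) of 9 gene lists in the 3 atrial (red) and 3 non-infarcted LV (blue) libraries, 1 symbol shape for each replicate number. Epicardial, endocardial and neutrophil sums are higher in every atrial library than in any LV library, and endothelial sums are lower. The endothelial list holds the fatty acid transporter gene Cd36, a large part of its sum. As CPM of the library total, Cd36 stood at 675, 997 and 955 in atria and 2781, 2546 and 2693 in LV. For adipocyte genes atria replicate 2, at 5750 CPM, stands apart from the other atrial libraries.

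Of 8 tested adipocyte genes only Plin4, a lipid droplet protein gene, was called, higher by 0.48 at a like level in the 3 atrial libraries (1133, 1153 and 1149.7 CPM). Without atria replicate 2 there were 4 higher and 2 lower, and 5 higher with all 18 libraries in the fit. The adipokine gene Adipoq had 1493 counts in atria replicate 2 and 13 and 2 in the other 2 atrial libraries. Cfd, secreted by fat cells, stood at 3.40, 384 and 1.42 CPM in atria and 1.27, 1.23 and 0.264 in LV and was not called (adjusted p = 0.124). Atria replicate 2 also had the highest summed neutrophil, recruited macrophage, cytokine, complement and epicardial levels of the 3 atrial libraries. The part of fat tissue in these was not tested. Without that library 9 neutrophil, 11 recruited macrophage, 16 cytokine, 13 complement and 14 epicardial genes were called higher, and 1 neutrophil and 1 epicardial gene lower.

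Most tested genes of developmental signalling pathways were called higher, antagonists as well as ligands. Of 29 genes of transforming growth factor beta and bone morphogenetic protein signalling, 21 were higher and 2 lower (median 0.76). Besides the ligand Bmp10, the ligands Tgfb1, Tgfb2, Tgfb3, Bmp2 and Bmp5 were called higher, Tgfb3 by 1.13. The pathway's target and inhibitor genes Id2 and Smad7 were higher by 3.41 and 1.16, Id2 standing at 77.8, 78.0 and 122 CPM in atria and 8.26, 10.1 and 7.51 in LV. The antagonist genes Fst, Fstl3 and Chrdl1 were also called higher. The 2 lower genes were Bmp7 and Gdf15 (-2.05 and -3.09). Gdf15, a stress hormone, stood at 1.82, 3.70 and 10.1 CPM in LV, highest in LV replicate 3, and its call was lost with voom and without atria replicate 1 or 2.

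Of 20 genes of Wnt signalling, 12 were higher and 2 lower (median 0.96). The summed level of the list, 1610 to 1970 CPM in atria and 89.7 to 138 in LV, was in atria mostly that of Dkk3. Ligands and enhancers among the higher genes included Wnt4 (13.4-fold) and Rspo1 (16-fold), both at low levels, and receptors included Fzd1 (2.88-fold), Fzd2 and Lgr6. Sfrp5, a secreted Wnt inhibitor, was called higher too. Wif1, also a secreted Wnt inhibitor, stood at 0.0756, 0.293 and 0.158 CPM in atria and 4.07, 6.45 and 3.56 in LV and was lower. The other lower gene was the ligand Wnt5b. In the retinoic acid list, 10 of 17 were higher and 5 lower (median 1.01). The synthesising enzymes Aldh1a3 and Aldh1a2 were 9.49-fold and 3.31-fold higher, while Cyp26b1, which degrades retinoic acid, stood at 1.51, 0.979 and 0.946 CPM in atria and 11.9, 8.82 and 10.5 in LV. Of the receptors Rara was higher (1.13), and Rxrg and Rxra were lower (-1.97 and -0.89).

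Genes that respond to load and injury in the myocardium did not move one way. Of 17, 6 were higher and 4 lower (median 0.44), with 2 lower without atria replicate 2. The metallothioneins Mt1 and Mt2 stood at 1406, 1439 and 1263 and 1479.9, 1722 and 1339 CPM in atria against 442, 596 and 522 and 352, 501 and 355 in LV. Xirp2, a stress-responsive protein of the junctions, was lower (-1.21, adjusted p = 0.0459), with LV replicate 3 at more than the other libraries (1175, 1294 and 2549 CPM in LV). It lost its call without atria replicate 1 or 2, with library totals only, with no count filter and with voom. Flnc, filamin C, was 2.13-fold higher (adjusted p = 0.031), a call lost with no count filter and without atria replicate 1 or 3 or LV replicate 1 or 2. Of 23 immediate early genes, 9 were higher and none lower (median 0.70), 15 were higher with the replicate block, and 18 without LV replicate 3, the library in which their sum was highest.

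The same contrast was run in the 6 libraries of mice given liraglutide, an agonist of the Glp1r receptor, none of which enters the PBS contrast. There 6377 of 13431 tested genes were called, 47.5%. Of the 6866 genes called in PBS, 5391 were called in the same direction, which is 78.5% of the PBS calls and 84.5% of the liraglutide calls, and 6748 of the 6797 that were tested had the same sign. Xirp2, Arid5b and Otulin, chosen after their values were seen, were called in opposite directions, and Xirp2 stood at -1.21 in PBS and 0.64 with liraglutide. A test of the difference between the contrasts called 0 of 13871 genes with edgeR, with 602 at an unadjusted p below 0.05, and 11 with DESeq2. That fit leaves the replicate number out. With it as a block within each treatment, an alternative added after the data were seen, edgeR called 0 genes, with 639 at an unadjusted p below 0.05 and a lowest adjusted p of 0.182. Without the block the lowest adjusted p was 0.407, for the developmental regulator Lbh, whose log2 fold change was -3.37 in PBS and -2.17 with liraglutide. For Xirp2, Arid5b and Otulin it was 0.982.

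The chamber genes kept their direction in these libraries. Nppa had a log2 fold change of 7.27, Bmp10 of 11.11, Myl7 of 7.30 (adjusted p = 0.000318) and Myl4 of 7.19. Myl2 was the exception in the test. It stood at 291, 8.68 and 835 CPM in the atrial libraries and at 9755, 10026 and 10594 in LV, a log2 fold change of -4.74 that was not called (edgeR, adjusted p = 0.0625). Irx4 stood at 0.765, 0 and 2.44 CPM in the same atrial libraries and 19.8 to 23.0 in LV. Atrial libraries 1 and 3 with liraglutide thus held both ventricular genes above the level of every PBS atrial library.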

How the data were processed

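Bulk RNA sequencing libraries were made, per the labels' protocols, from TRIzol-extracted RNA with a stranded TruSeq kit for mRNA. The deposited table holds whole-number counts per gene symbol, not normalised, made by the authors with STAR 2.7.9a on mm10 and with DESeq2 (version not given) named, per the submitters' processing notes. Neither the counting tool nor its strand setting, annotation or any batch is stated there, so reads of transcripts that overlap on opposite strands, such as Myl2 with Ccdc63 and Nppa with Gm13054, may not be separated. All columns of the table had a sample. Library pairs within a group differed by a chi-square per degree of freedom of 7.98 to 25.9, so none repeats another. Nothing says more of the replicates than that they are biological, and p-values measure the spread between these libraries.

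The 6 libraries were fitted in R 4.3.3 with edgeR 4.0.16 (low-count filter by group, TMM factors, robust quasi-likelihood test, Benjamini-Hochberg adjustment over 13250 genes, threshold 0.05), after the script was tested on simulated data. Normalised CPM uses the TMM-scaled totals. A floor of 3 counts per group bounds folds against 0. Alternatives were DESeq2 1.42.0, voom of limma 3.58.1, 3 other scalings, 2 other filters, all 18 libraries in the fit, a test against a log2 fold change of 1, the replicate number as a block, and each library left out. Same-numbered libraries of the 2 chambers deviated together slightly (correlations 0.141, 0.119 and 0.152, against -0.102 to -0.0274 for other pairs). Deviations were taken from each group's own mean, which makes the other pairs negative when same-numbered ones are positive. The labels do not say what the numbers mark. The main fit leaves the number out, so its SEs and p-values use no pairing, and only the block alternative does. Positions and exon lengths come from GENCODE M21 on GRCm38, and promoter windows from RefSeq.

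Named genes come from called genes without overlap between groups and with 50 or more counts on average, namely the 12 with the largest fold change and the 8 with the largest CPM difference in each direction. Added to these are up to 5 members of each list with the smallest p in each direction, members whose place in a list is described, and Nppa, Nppb, Myh6, Myh7, Myl2, Myl7 and Glp1r. Unnamed gene models are counted, not named, and the values of a few genes are not reported here. The comparison, the genes and the lists were chosen with earlier results of these data known, and the lists hold genes that several cell types express.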

Additional observations from a re-analysis of the deposited data

How the results depend on the processing

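Counts of genes higher and lower in atria stayed within 1.5 times their value under every alternative except the test against a log2 fold change of 1, which left 988 higher and 515 lower. Leaving out 1 library gave 2958 to 3419 higher and 2931 to 3385 lower genes. With the replicate block there were 3591 higher and 3542 lower genes. Of 341 named genes, the block ended the calls of Myl7 and Myl4, gave new ones for Nppb, Myh7, Gata4, Col1a2 and Col3a1, and changed no other call. For the difference between the PBS and liraglutide contrasts, DESeq2 called 11 genes and edgeR 0, also with the replicate block, and the cause was not tested. Same-numbered liraglutide libraries did not deviate together (correlations -0.0402 to 0.00841). Of 326 named genes that were called, 301 kept their call in all 16 alternatives but the threshold of 1, and 126 lost it when that threshold was included. None of the called genes changed sign. Signs changed only for uncalled genes near 0. With library totals only the log2 fold changes of Myh6, Atp2a2 and Nkx2-5 were 0.0084, 0.0631 and 0.1046. With all 18 libraries Nkx2-5 was at 0.0052, and with no count filter Ryr2 was at -0.0007. With 1 library left out, log2 fold changes ran from -0.1679 to 0.038 for Atp2a2, from -0.1745 to 0.0741 for Nkx2-5 and from -0.0717 to 0.1259 for Ryr2. Higher members of the ribosomal protein list went from 10 to 22 with library totals only and to 16 with all 18 libraries. At the depth of the shallowest library, atria replicate 3, a count of 3 equals 0.479 CPM. Differences of genes near that level in both chambers may therefore be missed. Genes near or below it in atria alone, such as Bmp7 and Wif1, were called.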

Other observations

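Clock, cell cycle and ribosomal protein genes had called shares near or below those over all genes tested, 26.1% higher and 25.7% lower. Of 17 tested circadian clock genes, 4 were higher in atria and 3 lower (23.5 and 17.6%, median log2 fold change 0.13). Npas2, a partner of the core clock activator, stood at 29.7, 19.9 and 22.2 CPM in atria and 5.89, 4.27 and 4.35 in LV, 4.85-fold higher without overlap, while the other activator gene Arntl was not called (0.13, SE 0.16). Nr1d1 and Nr1d2, paired repressors of the clock, went opposite ways, at 0.59 and -0.59, though Nr1d2 was not called with all 18 libraries in the fit. Of 20 cell cycle genes, 5 were higher and 2 lower, and 3 were higher without atria replicate 3, LV replicate 1 or LV replicate 3. The higher ones included Mcm4 (0.92), a gene of DNA replication, and other replication genes such as Mcm2 and Pcna were not called. The lower ones were Mki67 and Cenpf (-1.03 and -2.20), which mark cells near division. Of 38 cytosolic ribosomal protein genes, 10 were higher, 26.3%, and 0 lower (median 0.17). Leaving out atria replicate 1, LV replicate 1 or LV replicate 2 left 5 higher, with 2 lower in the second case. Rpl3, the one member higher past a log2 fold change of 1, stood at 396, 369 and 374 CPM in atria and 139.6, 136 and 121 in LV (2.87-fold). Skeletal muscle genes were divided. Actn3, Tnnt3, Tnni2 and Pvalb were higher in atria at low levels, and Ckm, Acta1 and Mybpc2 were lower, while the fast myosin genes Myh1, Myh2 and Myh4 had 4 counts or fewer in each group.

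Genes higher in atria can be set beside the infarcted LV of the same treatment, on the scale of CPM of the library total and without a test. Of 195 such genes that the naming rule chose, 154 had every atrial library above every infarcted library, 13 had every atrial library below, and 28 overlapped. The rule favours genes far higher in atria than in non-infarcted LV. The same count over all genes tested was not made, so these counts describe the named genes only. Slc2a1 was among the 13, at 61.5, 85.1 and 77.6 CPM in the atria, 127, 127 and 100.2 in infarcted LV and 31.5, 31.4 and 41.8 in non-infarcted LV. The genes given here as examples were chosen after their values were seen. Lgals3 stood at 123, 143 and 149.6 CPM in the atria, 6.28, 7.89 and 5.84 in infarcted LV and 2.35, 3.01 and 3.24 in non-infarcted LV. Il33 stood at 158, 239 and 173 CPM in the atria, 27.6, 28.1 and 25.2 in infarcted LV and 13.6, 14.9 and 8.03 in non-infarcted LV. For both, every atrial library was above every library of the infarcted tissue. C3 showed a smaller gap, with 455 to 794 CPM in the atria, 280.2 to 399 in infarcted LV and 121 to 134 in non-infarcted LV. Rsad2, an interferon-stimulated gene, had the opposite order, at 4.49 to 5.75 CPM in the atria, 16.6 to 21.6 in non-infarcted LV and 32.2 to 48.1 in infarcted LV.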
